A study of Mus musculus with 51 samples.

Results

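The genes of the proteasome subunits were examined in peak lists of 3 histone marks from mouse spermatocyte nuclei. The set held the 38 autosomal protein-coding genes of GENCODE M21 whose symbol is Psma, Psmb, Psmc or Psmd followed by a number, out of 20807 autosomal protein-coding genes. It comprised 8 genes of the alpha ring (Psma1 to Psma8), 7 genes of the constitutive beta ring (Psmb1 to Psmb7), the 3 immune beta genes Psmb8, Psmb9 and Psmb10, the thymic beta gene Psmb11, 6 ATPase genes (Psmc1 to Psmc6) and 13 genes of the Psmd group. The lists hold chromosomes 1 to 19, so that Psmd10, which lies on the X chromosome, was not included.

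The proteasome degrades proteins that carry ubiquitin chains. Its core particle is a barrel of alpha and beta rings. The beta genes Psmb5, Psmb6 and Psmb7 encode the catalytic subunits, and the alpha rings form the gate. The regulatory particle that caps the core contains the Psmc ATPases, which unfold the substrate, and most of the Psmd subunits. Among the Psmd subunits are those that bind or remove ubiquitin. Some subunits have tissue-specific versions. Psma8 replaces Psma7 in the proteasomes of spermatocytes, Psmb8, Psmb9 and Psmb10 replace Psmb5, Psmb6 and Psmb7 in immune cells or after interferon, and Psmb11 is used in the cortical epithelium of the thymus. H3K4me3 and H3K9ac, a methylation and an acetylation of histone H3, mark the promoters of active or poised genes, mostly those rich in the dinucleotide CG.

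The samples were nuclei of wild-type adult male C57Bl/6J mice, fixed, extracted from whole testis and sorted by flow cytometry on DNA content and nuclear antigens. The 5 populations were leptonema (SCP3 and STRA8 positive), and zygonema, early pachynema, late pachynema and diplonema, which came from a second sort on SCP3, H1t and SCP1. No mouse carried a transgene or received a treatment. ChIP-Seq gave 10 H3K4me3 lists (EpiCypher antibody, experiments 1 and 2 of each stage), 5 H3K4me2/3 lists (Abcam antibody, which binds the di- and trimethylated forms, experiment 2) and 5 H3K9ac lists (experiment 1). For the H3K9ac libraries, the titles and the methods of the study name H3K9ac, whereas 1 field of the sample labels names an H3K4me3 antibody. They are called H3K9ac here.

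The lists give peak intervals with neither heights nor read counts, so that the depth behind a call is unknown. A gene was called in a list when a peak overlapped, by at least 1 bp, a window of 500 bp on either side of the 5′ end of any of its transcripts. Its width was that of the widest such peak in bp, and 0 where there was none. The lists held between 4883 and 15699 peaks for H3K4me3, between 17561 and 30943 for H3K4me2/3 and between 516 and 16003 for H3K9ac. List length differed between libraries of the same stage, which touches each count and width that follows. In sorted populations, fewer marked nuclei and less mark per nucleus cannot be told apart. An H3K4me3 list called between 25.5% and 47.1% of all autosomal protein-coding genes, with a median of 36.4%. The 8 spermatocyte marker genes examined (among them Sycp1, Sycp3, Ddx4 and Dazl) had 78 of 80 possible H3K4me3 calls. The markers of other testis cells had 4 of 40 for Sertoli cells, 1 of 40 for Leydig cells, 2 of 30 for peritubular cells and 0 of 50 for immune cells.

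Most proteasome genes had an H3K4me3 peak within 500 bp of a transcript start at every stage. Of the 38 genes, 27 were called in all 10 H3K4me3 lists, against 18.2% of all autosomal protein-coding genes. The count was 9 when a peak had to cover the base of a start itself, 2 with the wider peaks of each list and 1 with lists trimmed to equal size. The share of all genes in these settings was not counted, so that these counts have no background beside them. In the lists as deposited, another 8 genes were called in 1 to 9 lists, and the 3 genes Psmb8, Psmb9 and Psmb11 in no list, against 44.8% of all genes. At leptonema, 32 genes were called in experiment 1 and 34 in experiment 2, beside 39.2% and 47.1% of all genes. At zygonema the counts were 33 and 31 (36.9% and 35.9% of all genes). The 2 early pachynema lists called 33 and 32 (34% and 25.5%), the late pachynema lists 33 and 33 (26.8% and 40.3%), and the diplonema lists 30 and 34 (29.3% and 46.8%). The number of proteasome genes called thus stayed between 30 and 34 while the share of all genes ranged from 25.5% to 47.1%.

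Both libraries of a stage called 32 proteasome genes at leptonema (38.6% of all genes), 31 at zygonema (32.9%) and 30 at diplonema (29.2%). At early and at late pachynema it was 32 each time (25.3% and 26.1%). Peak widths were set beside those of all called genes. The median width of the called proteasome genes lay between 343 bp and 1099 bp per H3K4me3 list, and that of all called genes between 401 bp and 939 bp. In 9 of the 10 lists the median called proteasome gene stood below the middle of all called genes, from the 27.4th to the 44.9th percentile, and in diplonema experiment 2 it stood at the 59.4th. No test was made of this difference.

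**Figure D1:**
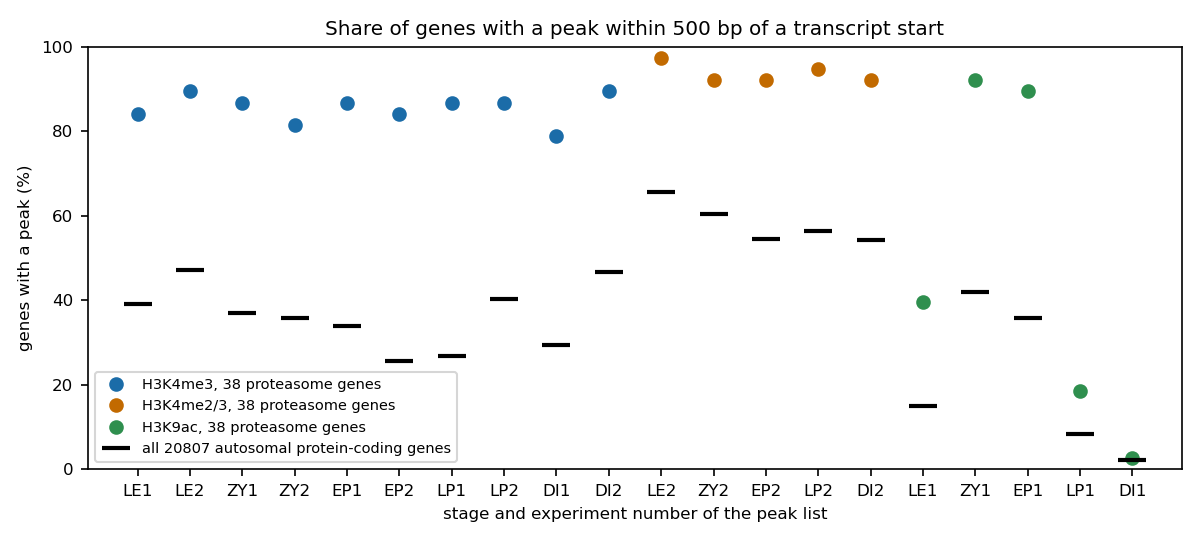
Share of genes with a peak within 500 bp of a transcript start (y axis, %) in each of the 20 lists (x axis, stage and experiment number). Coloured points are the 38 proteasome genes and black bars all 20807 autosomal protein-coding genes; the points lie above the bars in every list, by the least in H3K9ac diplonema, where 1 proteasome gene was called.

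With the Abcam antibody, nearly the whole set was called. The H3K4me2/3 lists held 37 proteasome genes at leptonema (65.7% of all genes), 35 at zygonema (60.5%) and 36 at late pachynema (56.4%). The early pachynema and diplonema lists held 35 each (54.6% and 54.3%). All 5 lists held 35 proteasome genes, against 48.7% of all genes. These were the 34 genes outside the immune and thymic groups, with Psmb10. At every gene called in both lists of experiment 2 at a stage (31 to 34 genes), the H3K4me2/3 peak was wider than the H3K4me3 peak. The median ratio of the 2 widths over these genes ranged from 1.81 at leptonema to 3.42 at late pachynema. Over all genes called in both lists it ranged from 1.84 at leptonema to 3.56 at early pachynema. The share of all genes with a wider H3K4me2/3 peak was not counted. Per the study, the early pachynema material of experiment 2 differed between the 2 antibodies in purity and in amount of chromatin.

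H3K9ac calls followed the length of the lists. The leptonema list called 15 proteasome genes (14.9% of all genes), the zygonema list 35 (41.9%), the early pachynema list 34 (35.7%), the late pachynema list 7 (8.36%) and the diplonema list 1 (2.08%). No proteasome gene was called in all 5 lists, and 0.851% of all genes were. The gene called at diplonema was Psmc3, with a peak of 163 bp. The 7 genes called at late pachynema were Psma2, Psma3, Psma8, Psmb1, Psmc3, Psmd3 and Psmd9. With 1 H3K9ac library per stage and between 516 and 16003 peaks per list, stage and list length cannot be told apart for this mark.

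**Figure D2:**
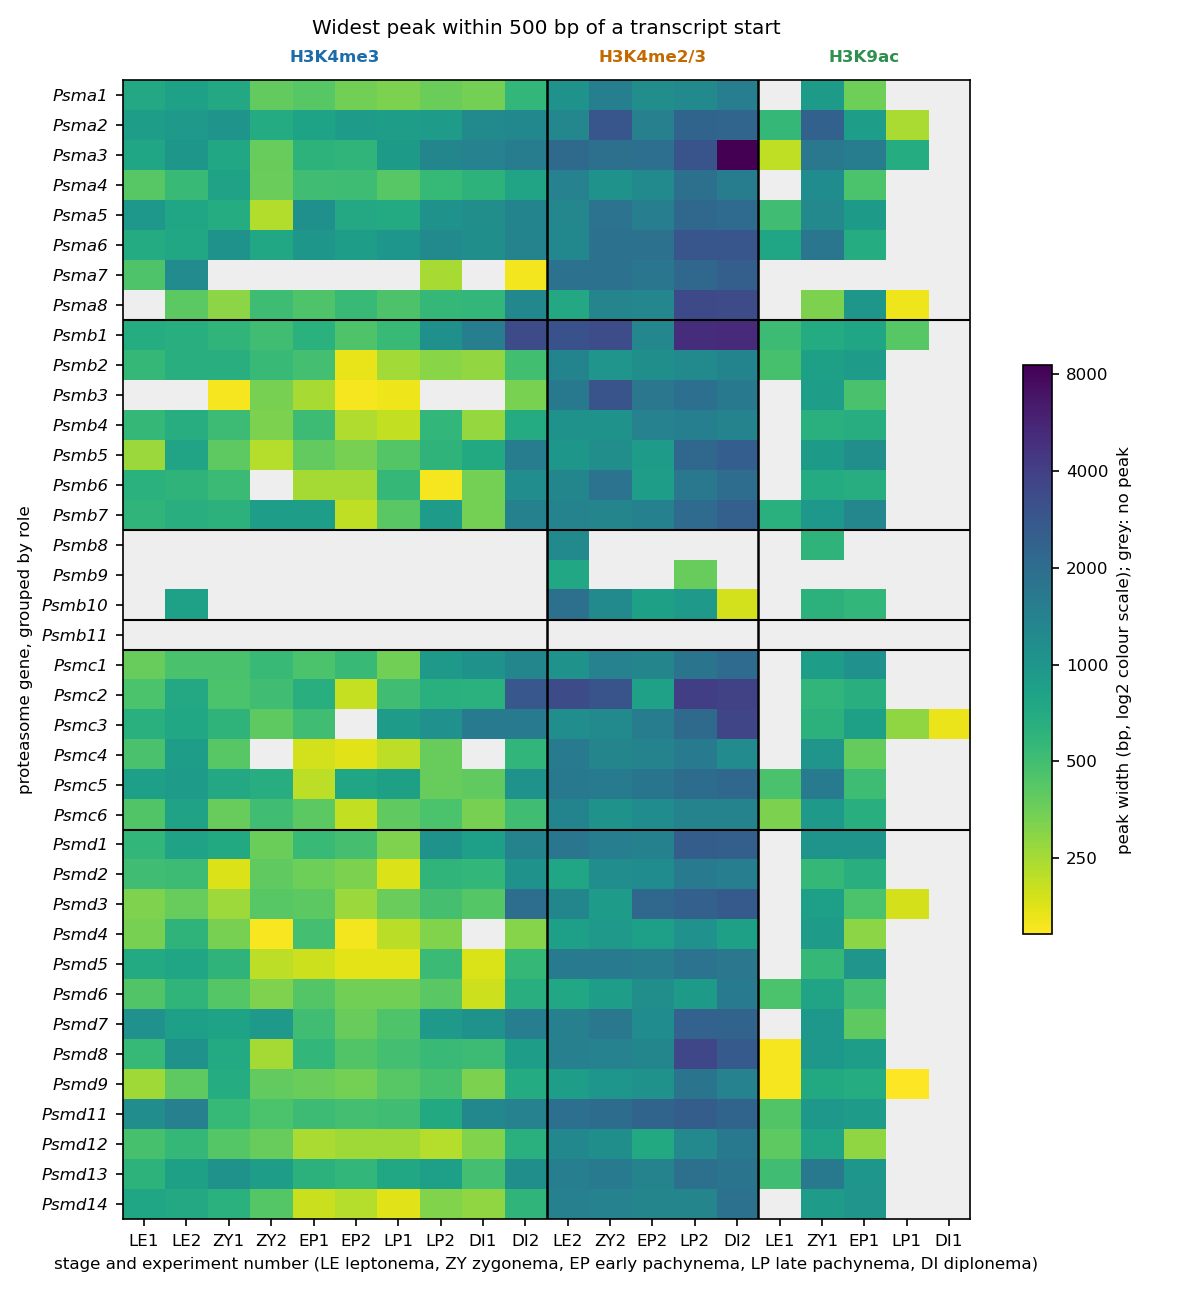
Width of the widest peak within 500 bp of a transcript start (colour, bp, log2 scale; grey where there was no peak) for 38 proteasome genes (rows, grouped by role) in 20 lists (columns). Grey cells gather in the rows of Psma7 and Psmb8 to Psmb11 and in the H3K9ac lists of leptonema, late pachynema and diplonema.

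Among the alpha ring genes, 6 of 8 were called in all 10 H3K4me3 lists, and the group had 73 of 80 possible calls. The exceptions were Psma7, called in 4 lists, and its spermatocyte counterpart Psma8, called in 9. The constitutive beta genes had 65 of 70 possible calls, the ATPase genes 57 of 60 and the Psmd genes 129 of 130. The immune beta genes had 1 of 30 and Psmb11 had 0 of 10. Beside these counts, an H3K4me3 list called between 25.5% and 47.1% of all genes, with a median of 36.4%. Mean H3K4me3 widths over the 10 libraries ran from 204 bp (Psma7) to 987 bp (Psma6) in the alpha ring. They ran from 138 bp (Psmb3) to 996 bp (Psmb1) in the constitutive beta ring, from 329 bp (Psmc4) to 807 bp (Psmc3) among the ATPases and from 290 bp (Psmd4) to 854 bp (Psmd11) in the Psmd group.

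For 10 of the 38 genes, a transcript of another protein-coding gene starts within the window, so that a peak there cannot be assigned to 1 of the genes. Examples are Psma7 with Ss18l1 at 76 bp, Psmb1 with Tbp at 137 bp, Psmc2 with Dnajc2 at 32 bp and Psmb9 with Tap1 at 30 bp. In these 4 cases the neighbour lies on the opposite strand. Psma6, Psmd5 and Psmd9 had their calls at other annotated starts, and none of the 3 had an H3K4me3 peak within 500 bp of the outermost 5′ end of the gene.

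Psma7 and Psma8 were the 2 alpha genes with missing H3K4me3 calls, and they lacked them at different stages. Psma7, on the minus strand of chr2:180036374-180042433 (mm10), had H3K4me3 widths of 446 bp and 1195 bp in the 2 leptonema libraries. No peak was found in either zygonema library, in either early pachynema library, in late pachynema experiment 1 or in diplonema experiment 1. The 2 remaining peaks were short, with 246 bp in late pachynema experiment 2 and 157 bp in diplonema experiment 2. They began 259 bp and 390 bp downstream of the 5′ end of the gene and covered no annotated start of Psma7. Both leptonema peaks covered the 5′ end and the start of Ss18l1.

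Psma8, on chromosome 18, showed the opposite order. It had no H3K4me3 peak in leptonema experiment 1 and a width of 408 bp in experiment 2. The 2 zygonema libraries gave 295 bp and 517 bp, the early pachynema libraries 442 bp and 552 bp, the late pachynema libraries 451 bp and 568 bp, and the diplonema libraries 578 bp and 1281 bp. In the zygonema libraries and in leptonema experiment 2 the peak spanned the 5′ end of the gene, whereas in all 4 pachynema libraries and diplonema experiment 1 it began between 45 bp and 79 bp downstream of it. The peak of diplonema experiment 2 again spanned the 5′ end, from -332 bp to 948 bp. No other protein-coding gene starts within these peaks.

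Psma7 was therefore wider than Psma8 in both leptonema libraries, and Psma8 was wider in the 8 libraries of the other stages. The mean H3K4me3 width over 10 libraries was 509 ± 321 bp (SD) for Psma8 and 204 ± 379 bp for Psma7. The mean difference of 305 ± 542 bp did not pass the threshold (two-sided exact sign-flip permutation test over 10 libraries, p = 0.107, and 0.107 after Benjamini-Hochberg adjustment over the 4 pairs). Psma8 minus Psma7 averaged -105 bp in the 4 libraries of leptonema and zygonema and 578 bp in the 6 libraries of the later stages. The change between these groups was -683 bp (exact permutation test, two-sided, with 210 arrangements, p = 0.0286, adjusted p = 0.114 over the 4 pairs), so that the unadjusted value passed 0.05 and the adjusted value did not. Within experiment 1 the change was -566 bp and within experiment 2 it was -801 bp. The 1195 bp of leptonema experiment 2 weighed on the first test. Without that library the mean difference was 426 bp with an adjusted p of 0.0195 by the same exact test.

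The other marks gave a partly different picture. Psma7 carried an H3K4me2/3 peak over its 5′ end in all 5 lists, with widths of 1836 bp at leptonema, 1831 bp at zygonema and 1735 bp at early pachynema, then 2143 bp at late pachynema and 2471 bp at diplonema. Each of these 5 peaks also covered the start of Ss18l1, so that they cannot be assigned to 1 of the 2 genes. Psma7 was called in none of the 5 H3K9ac lists, including those of zygonema and early pachynema, where 35 and 34 of the 38 genes were called. The H3K4me2/3 widths of Psma8 were 734 bp, 1326 bp, 1293 bp, 3460 bp and 3388 bp in the same order of stages. Psma8 had H3K9ac peaks of 322 bp at zygonema, 981 bp at early pachynema and 160 bp at late pachynema, and none at leptonema or diplonema. With 1 library per stage, these 2 marks have no replicate check. Psma7 thus lacked an H3K4me3 call at its 5′ end after leptonema while the Abcam antibody gave a call there, shared with Ss18l1, throughout.

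**Figure D3:**
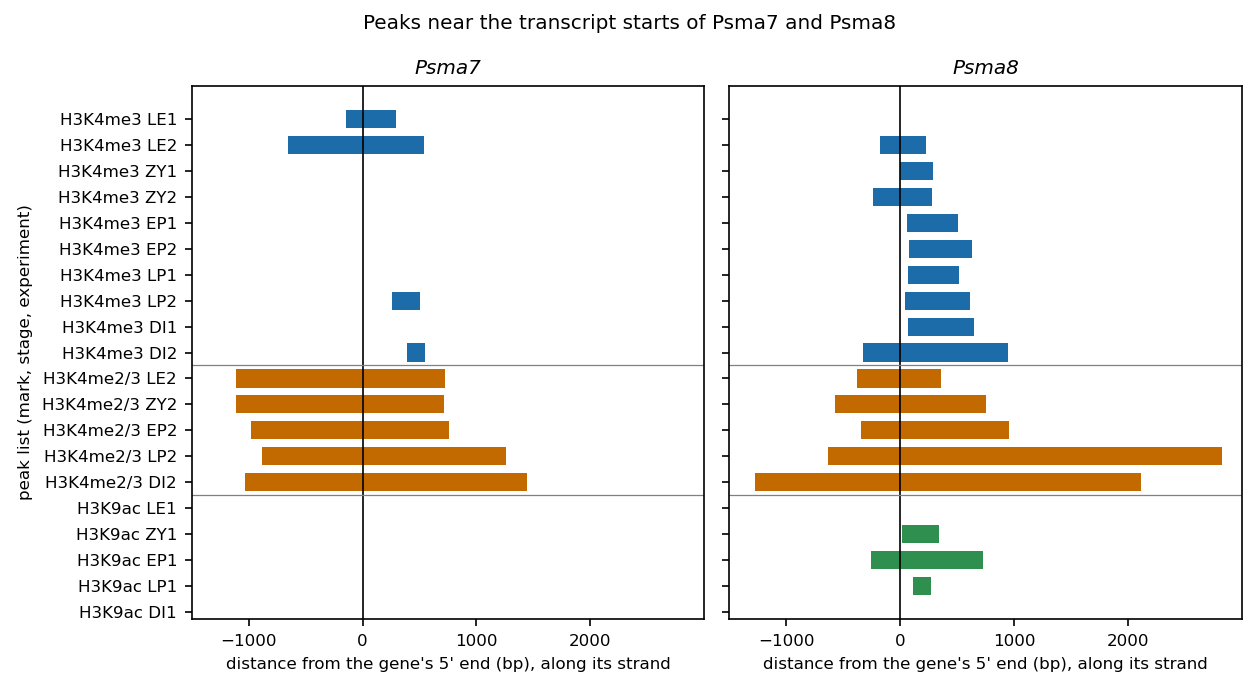
Peaks near the transcript starts of Psma7 (left) and Psma8 (right), drawn from start to end as distance from the gene's 5′ end in bp along its strand (x axis) in each of the 20 lists (y axis). H3K4me3 peaks over the 5′ end of Psma7 appear in the 2 leptonema lists, while Psma8 has a peak in 9 of the 10 H3K4me3 lists, over its 5′ end in 4 of them and beginning 45 bp to 79 bp downstream in 5.

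Promoter sequences are shown for Psma7 and for the catalytic genes compared next. They are those for which a gene lacked calls or served as the constitutive counterpart. RefSeq promoters (build GRCm38.p6, 250 bases before to 50 bases after the start) were matched for 31 of the 38 genes. No promoter was matched here for Psma8, Psmb1, Psmb2, Psmb7, Psmc3, Psmd3 and Psmd7, which does not show that RefSeq holds none for them. Their CG numbers and motifs were therefore not examined. Each sequence is written 5′ to 3′ along the gene's strand, with every CG dinucleotide in capitals. The positions are chr2:180042415-180042714 (minus strand) for Psma7, chr14:54617946-54618245 (minus) for Psmb5, chr17:34197945-34198244 (plus) for Psmb8, chr11:70525107-70525406 (plus) for Psmb6, chr17:34187281-34187580 (minus) for Psmb9 and chr8:105938343-105938642 (minus) for Psmb10.
Psma7: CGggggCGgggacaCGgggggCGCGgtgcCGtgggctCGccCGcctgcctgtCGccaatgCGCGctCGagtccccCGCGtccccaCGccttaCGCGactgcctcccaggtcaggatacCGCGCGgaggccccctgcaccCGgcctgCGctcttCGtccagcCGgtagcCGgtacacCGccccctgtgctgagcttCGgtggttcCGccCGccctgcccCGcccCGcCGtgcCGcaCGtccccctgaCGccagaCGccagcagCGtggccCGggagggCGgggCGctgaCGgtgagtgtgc
Psmb5: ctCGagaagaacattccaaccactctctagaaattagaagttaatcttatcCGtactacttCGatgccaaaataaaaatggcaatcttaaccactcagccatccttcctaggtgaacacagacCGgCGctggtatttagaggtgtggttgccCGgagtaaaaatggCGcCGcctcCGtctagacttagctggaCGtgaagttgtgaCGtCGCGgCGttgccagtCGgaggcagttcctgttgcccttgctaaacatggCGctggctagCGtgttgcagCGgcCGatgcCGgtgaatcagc
Psmb8: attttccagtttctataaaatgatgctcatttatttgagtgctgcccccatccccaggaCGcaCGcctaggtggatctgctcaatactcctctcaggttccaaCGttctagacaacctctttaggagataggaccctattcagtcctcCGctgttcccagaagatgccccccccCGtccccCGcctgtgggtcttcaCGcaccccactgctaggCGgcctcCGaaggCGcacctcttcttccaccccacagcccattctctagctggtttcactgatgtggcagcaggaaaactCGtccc
Psmb6: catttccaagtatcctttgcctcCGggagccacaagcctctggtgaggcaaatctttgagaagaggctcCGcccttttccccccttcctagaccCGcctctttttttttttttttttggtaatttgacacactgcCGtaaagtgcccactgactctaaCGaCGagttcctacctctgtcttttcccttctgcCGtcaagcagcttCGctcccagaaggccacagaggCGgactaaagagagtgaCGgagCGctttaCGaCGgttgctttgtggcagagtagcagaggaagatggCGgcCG
Psmb9: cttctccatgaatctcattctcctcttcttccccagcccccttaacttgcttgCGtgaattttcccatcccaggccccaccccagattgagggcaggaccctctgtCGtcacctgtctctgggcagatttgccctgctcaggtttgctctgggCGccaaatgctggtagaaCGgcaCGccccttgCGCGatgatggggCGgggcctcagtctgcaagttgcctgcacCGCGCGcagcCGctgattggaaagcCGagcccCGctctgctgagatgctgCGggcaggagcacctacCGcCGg
Psmb10: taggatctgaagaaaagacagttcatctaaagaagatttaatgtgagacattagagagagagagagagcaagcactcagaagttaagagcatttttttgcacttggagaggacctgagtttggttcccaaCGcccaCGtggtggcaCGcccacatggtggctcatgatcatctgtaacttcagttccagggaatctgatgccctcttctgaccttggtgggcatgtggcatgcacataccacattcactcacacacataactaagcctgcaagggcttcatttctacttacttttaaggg

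The promoter of Psma7 holds 41 CG dinucleotides, more than any other matched promoter of the set. Psma8 was left out of the matching with its chromosome, so that Psma7 was not compared with it. The Psma7 promoter stands at the 96.8th percentile of the 32851 promoters of the table, whose median is 7. Psmb5 holds 20, Psmb6 15, Psmb9 17, Psmb8 11 and Psmb10 3. The peaks given here for Psmb10 all lie downstream of its printed sequence, from 157 bp past the outermost 5′ end on. The number of Psmb10 therefore describes a stretch that none of them touched. Psmb11, not printed, holds 4. In the 22 matched genes called in all 10 H3K4me3 lists the number ran from 3 to 37 with a median of 20, where the promoter listed first was taken for Psma6 and Psmc2, which have 2 each. The value of 3 is that of the upstream promoter of Psma6, whose other promoter holds 22. Of the genes with at most 4 H3K4me3 calls, Psma7, Psmb9 and Psmb8 had CG numbers above the median of the table (41, 17 and 11). Psmb10 and Psmb11 had numbers below it (3 and 4). A relation of CG number to calls was not tested.

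Short motifs were searched on both strands of these promoters, again with the promoter listed first for Psma6 and Psmc2. The core of the antioxidant response element, through which Nfe2l1 and Nfe2l2 act on proteasome genes, was written TGACNNNGC and was found in 5 of 31 genes (Psmb5, Psmb6, Psmc6, Psmd9 and Psmd12), against 12.4% of all promoters. CCAAT was found in 12 of 31, against 37.4%, and TATAAA in 4 of 31 (Psmb4, Psmb8, Psmd1 and Psmd6), against 13.6%. The gamma-activated site TTCNNNGAA was found in Psmb8 and Psmd2, against 8.3% of all promoters. The interferon response element, searched as GAAANNGAA, was found in Psmb3, Psmb4, Psmd4 and Psmd9, against 8.56%, as well as in the other promoter of Psmc2, and in none of the 3 immune beta genes. These are matches of letters within 300 bases and are not tests of factor binding. For Psmb10, the sequence searched lies upstream of the peaks given here.

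The 3 immune beta genes lacked the H3K4me3 calls of their constitutive counterparts. Psmb8 and Psmb9, neighbours on chromosome 17 (chr17:34197721-34201454 on the plus strand and chr17:34181987-34187764 on the minus strand, mm10), had no H3K4me3 peak in any of the 10 libraries. Psmb10, on the minus strand of chr8:105935735-105938444, had 1 peak of 825 bp in leptonema experiment 2 and none in the other 9. That peak lay 712 bp to 1536 bp downstream of the outermost 5′ end and covered a more internal annotated start.

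Psmb5, which encodes the chymotrypsin-like subunit that Psmb8 replaces, was called in all 10 libraries. Its widths were 268 bp and 784 bp at leptonema, 399 bp and 227 bp at zygonema, 384 bp and 333 bp at early pachynema, 431 bp with 605 bp at late pachynema, and 722 bp and 1530 bp at diplonema. The mean was 568 ± 386 bp (SD) against 0 for Psmb8, and Psmb5 was wider in 10 of 10 libraries. Since Psmb8 was at 0 throughout, a test of the width difference would only restate the 10 calls of Psmb5, and none is given.

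Psmb6, the caspase-like subunit that Psmb9 replaces, was called in 9 libraries. The widths were 629 bp and 607 bp at leptonema, 533 bp and none at zygonema, 252 bp and 250 bp at early pachynema, 562 bp and 154 bp at late pachynema, and 340 bp and 1149 bp at diplonema. Psmb6 was wider than Psmb9 in 9 of 10 libraries, with a mean of 448 ± 324 bp (SD) against 0, and here too no test is given because Psmb9 was at 0 throughout.

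Psmb7, the trypsin-like subunit that Psmb10 replaces, was called in all 10 libraries, with 592 bp and 661 bp at leptonema, 618 bp and 868 bp at zygonema, 883 bp and 215 bp at early pachynema, 413 bp and 905 bp at late pachynema, and 338 bp and 1431 bp at diplonema. It was wider than Psmb10 in 9 of 10 libraries, leptonema experiment 2 being the exception, with a mean of 692 ± 351 bp against 82.5 ± 261 bp (two-sided exact sign-flip permutation test, p = 0.00391, adjusted p = 0.00521 over the 4 pairs). The call for this pair was lost when a peak had to cover the base of a start itself (adjusted p = 0.125), when the wider peaks of each list alone were kept (0.188) and when lists were trimmed to equal size (0.0625), by the same exact test. The direction was kept in each of these settings. Psmb10 was at 0 in 9 of the 10 libraries, so that the test in the lists as deposited largely restates the calls of Psmb7. Its adjustment also counts the 2 pairs for which no test is given.

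For these 3 pairs, no change of the width difference between the earlier and the later stages passed the threshold. It changed by 248 bp for Psmb8 minus Psmb5, by 8.92 bp for Psmb9 minus Psmb6 and by 219 bp for Psmb10 minus Psmb7 (exact permutation tests, adjusted p = 0.641, 0.981 and 0.641). Psmb8 and Psmb9 were at 0 throughout, so the first 2 values only restate the changes of Psmb5 and Psmb6 with the sign turned. The change for the Psmb8 pair was 75.5 bp without diplonema experiment 2. That for the Psmb10 pair was 4.83 bp without leptonema experiment 2, 72.3 bp without diplonema experiment 2 and 349 bp without zygonema experiment 2, and that for the Psmb9 pair turned negative without any 1 of 3 libraries. Within experiments 1 and 2 the changes were 179 bp and 317 bp for the Psmb8 pair, -196 bp and 214 bp for the Psmb9 pair and -60.3 bp and 498 bp for the Psmb10 pair. The Psmb9 and Psmb10 pairs therefore changed in opposite directions in the 2 experiments.

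The 3 immune genes had 8 of 15 possible H3K4me2/3 calls and 3 of 15 possible H3K9ac calls, in lists that called 54.3% to 65.7% and 2.08% to 41.9% of all genes. Psmb8 had an H3K4me2/3 peak of 1218 bp at leptonema and an H3K9ac peak of 601 bp at zygonema that lay upstream of the 5′ end. Psmb9 had H3K4me2/3 peaks of 737 bp at leptonema and 373 bp at late pachynema, both of which also covered a start of Tap1, a peptide transporter gene of antigen presentation. Psmb10 was called in all 5 H3K4me2/3 lists, with 1898 bp at leptonema, 1241 bp at zygonema and 840 bp at early pachynema, then 943 bp at late pachynema and 192 bp at diplonema. Its H3K9ac peaks were 625 bp at zygonema and 575 bp at early pachynema. The thymic gene Psmb11 had no peak in any of the 20 lists.

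**Figure D4:**
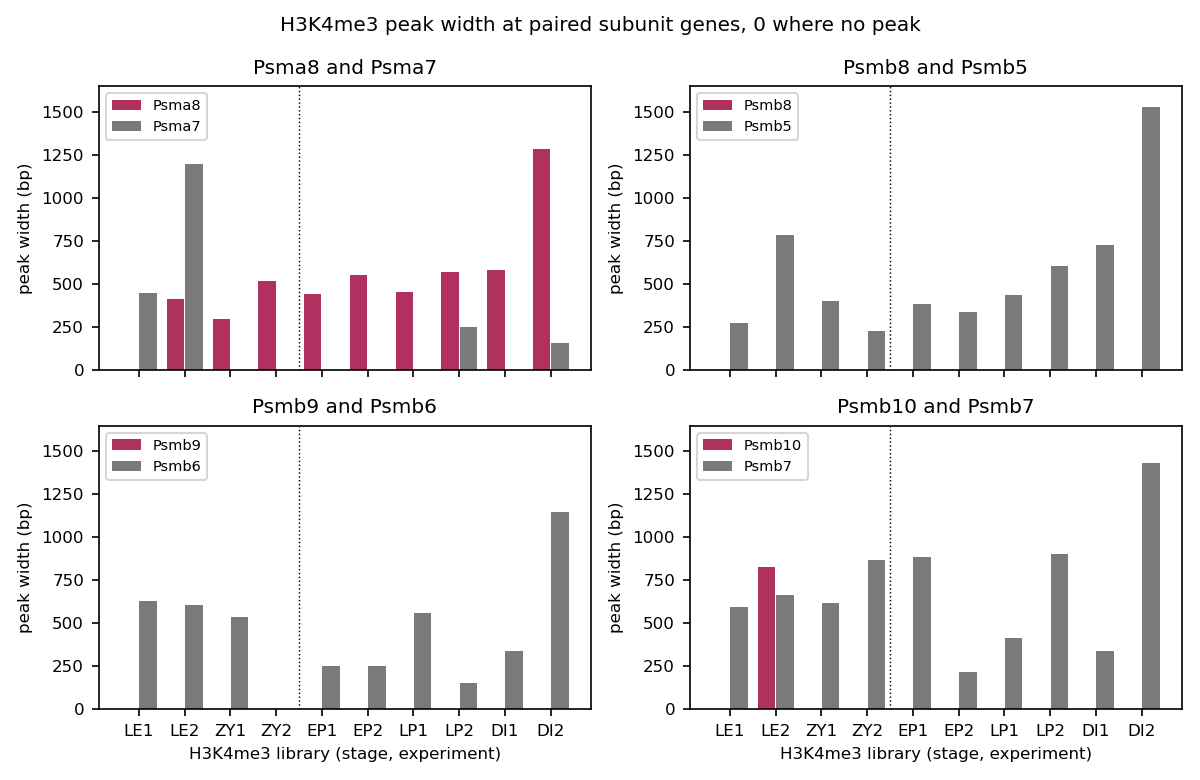
H3K4me3 peak width (y axis, bp, 0 where there was no peak) at 4 pairs of subunit genes in the 10 libraries (x axis, stage and experiment), with a dotted line between zygonema and early pachynema. Psmb8 and Psmb9 have no bars and Psmb10 has 1, in leptonema experiment 2; Psma7 has its tallest bars at leptonema and Psma8 in diplonema experiment 2.

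The other genes with incomplete H3K4me3 calls were Psmb3, Psmc3, Psmc4 and Psmd4. Psmb3, a non-catalytic beta subunit, was called in 6 libraries. It had no peak in either leptonema library, 154 bp and 336 bp at zygonema, 246 bp and 154 bp at early pachynema, 161 bp in late pachynema experiment 1 and 331 bp in diplonema experiment 2. The H3K4me2/3 lists nevertheless called Psmb3 at all 5 stages, with widths from 1637 bp to 2972 bp. Psmc3, an ATPase, lacked a call in early pachynema experiment 2 alone. Psmc4, another ATPase, lacked calls in zygonema experiment 2 and diplonema experiment 1, and Psmd4, a ubiquitin receptor, in diplonema experiment 1. Outside these libraries Psmc4 had widths from 173 bp to 867 bp and Psmd4 from 150 bp to 600 bp.

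H3K4me3 width was then compared between the 4 libraries of leptonema and zygonema and the 6 libraries of the 3 later stages. The test covered 10225 genes with a peak in at least 2 of the 10 libraries, 34 of them proteasome genes. Psmb8, Psmb9, Psmb11 and Psmb10 did not enter. No gene passed an adjusted p of 0.05 in either direction (two-sided exact permutation test over 210 splits with Benjamini-Hochberg adjustment, 0% of all genes tested). The smallest p of this design is 0.00476. It was reached by 494 genes, and 974 would have been needed for it to pass after adjustment. At an unadjusted p under 0.05, 3 proteasome genes were wider in the earlier stages (Psma1, Psmb2 and Psmd14), against 16.6% of all genes tested. Psma6 was wider in the later stages, against 2.64%. With limma on log2(width + 250 bp), 4.85% of the genes tested were wider in the earlier and 0.675% in the later stages at an adjusted p under 0.05, and no proteasome gene was among them. At an unadjusted p under 0.05 limma gave 2 proteasome genes, Psmb2 and Psmd14, wider in the earlier stages and 0 in the later stages, against 18.7% and 3.83%.

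As a group, the proteasome genes were split between both directions. Of the 34, 16 had a wider mean in the earlier and 18 in the later stages. The median difference, earlier minus later, was -6.04 bp over the 34 genes and 98.9 bp over all genes tested, of which 62.3% had a wider mean in the earlier stages.

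The genes with the largest differences towards the earlier stages were Psma7, Psmd14, Psmb2, Psma1 and Psmd5. Psmd14, the deubiquitinase of the regulatory particle, had widths of 766 bp, 728 bp, 630 bp and 427 bp in the 4 earlier libraries and from 173 bp through a median of 256.5 bp to 596 bp in the 6 later ones. Its means were 638 ± 152 bp (SD, n = 4) and 300 ± 154 bp (SD, n = 6; exact permutation test, p = 0.019, adjusted p = 0.174 over all genes), and the groups overlapped. Psmb2, a non-catalytic beta subunit, had 566 bp, 667 bp, 655 bp and 546 bp against a range of 166 bp to 495 bp with a median of 290 bp. Its groups did not overlap, unlike those of the other proteasome genes tested (exact permutation test, p = 0.00952, adjusted p = 0.129). The share of all genes tested without overlap was not counted. Psma1 had 730 bp, 822 bp, 730 bp and 388 bp against 326 bp to 578 bp with a median of 353 bp (exact permutation test, p = 0.0143, adjusted p = 0.154). Psmd5, a chaperone for assembly of the regulatory particle, had 707 bp, 761 bp, 603 bp and 219 bp against 171 bp to 564 bp with a median of 190.5 bp. For Psmd5 the difference was 471 bp within experiment 1 and 68.7 bp within experiment 2, and for Psmb2 it was 269 bp and 286 bp.

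The largest differences towards the later stages were those of Psmb1, Psmc2, Psmc3, Psma3 and Psma5, with mean widths from 349 bp to 639 bp greater than in the earlier stages. Psmb1, a non-catalytic beta subunit, had 687 bp, 668 bp, 589 bp and 505 bp in the earlier libraries and from 447 bp through a median of 864.5 bp to 3286 bp in the later ones. Psmc2 had 460 bp, 735 bp, 462 bp and 503 bp against 208 bp to 2818 bp with a median of 634 bp. For both, the widest peak was that of diplonema experiment 2. Without that library the difference of Psmc2 was 11.4 bp in the other direction and that of Psmb1 was -232 bp.

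Psmc3 had 640 bp, 745 bp, 598 bp and 401 bp in the earlier libraries against none to 1617 bp with a median of 995.5 bp in the later ones. The alpha genes Psma3 and Psma5 had medians of 1127 bp and 1079 bp in the later libraries, with earlier values of 762 bp, 991 bp, 737 bp and 374 bp for Psma3 and of 964 bp, 776 bp, 689 bp and 232 bp for Psma5. The adjusted p of these 5 genes lay between 0.28 and 0.87 in the exact permutation test. In each of the 5 the groups overlapped.

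**Figure D5:**
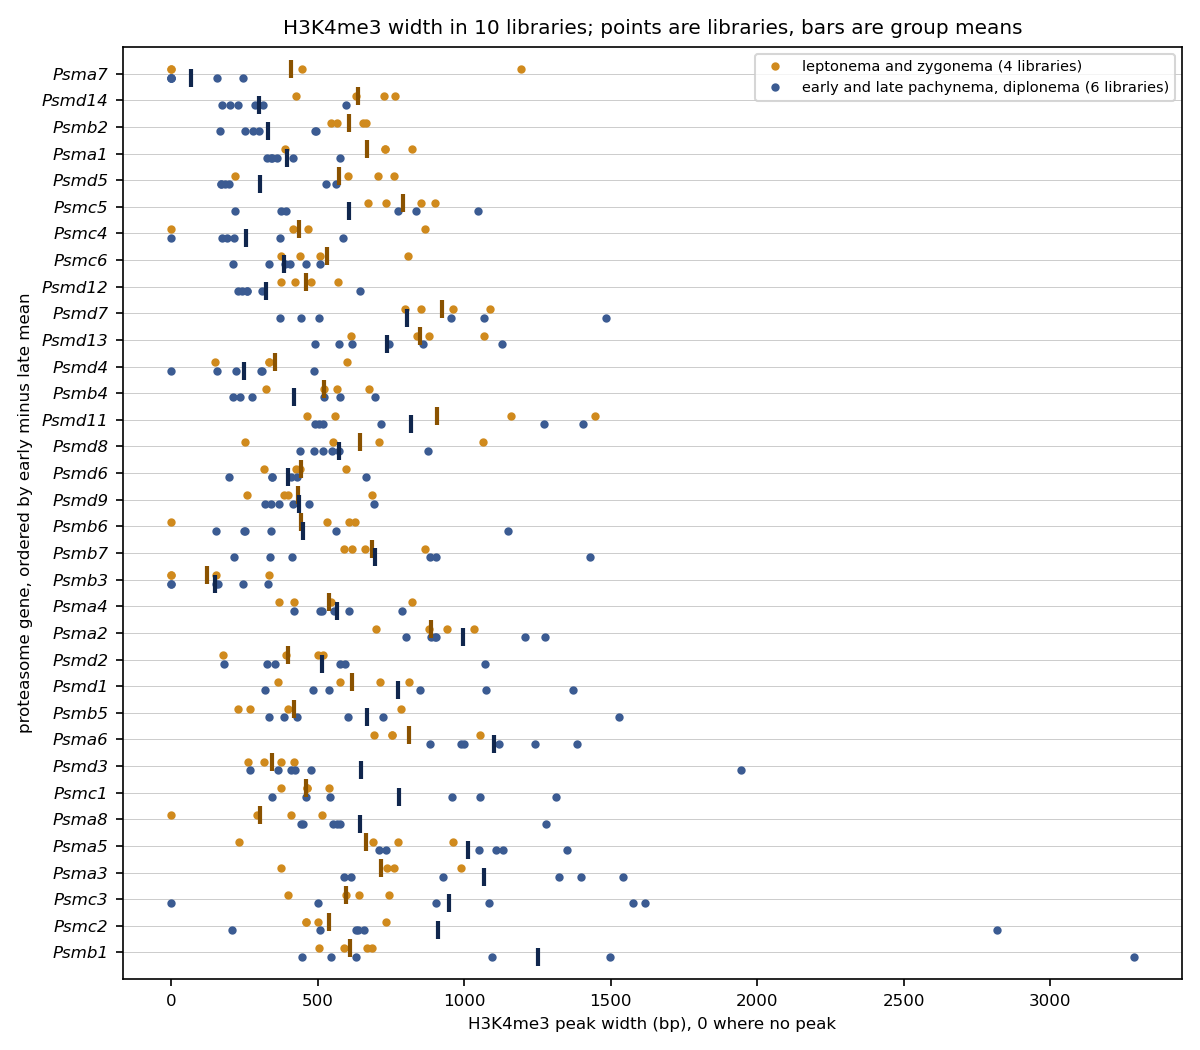
H3K4me3 peak width (x axis, bp) of the 34 proteasome genes tested (y axis, ordered by the difference of means) in the 4 libraries of leptonema and zygonema (orange) and the 6 libraries of the later stages (blue). Points are libraries and vertical bars group means. The 2 groups overlap in every gene drawn but Psmb2, and the share of all genes tested without overlap was not counted.

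The split of directions depended on the scale. When each width was replaced by its percentile rank among all genes of the same library, no gene passed after adjustment (0% in both directions). At an unadjusted p under 0.05, 0 proteasome genes stood higher in the earlier stages, against 12% of all genes tested, and 11 of 34 stood higher in the later stages, against 14.4% (two-sided exact permutation test). These were Psma3, Psma5, Psma6, Psma8, Psmb1, Psmb5, Psmc1, Psmc2, Psmd1, Psmd2 and Psmd3. The median rank difference, earlier minus later, was -5.43 percentile points over the 34 genes and 1.12 over all genes tested. Psma8 moved from a mean percentile of 59.1 in the earlier to 83.4 in the later libraries (exact permutation test, p = 0.00952, adjusted p = 0.0889), and Psma3 from 80.9 to 92.6 (p = 0.00476, adjusted p = 0.07 in the same exact test). Ranks place a gene above those without a peak, and the share of genes with a peak ranged from 25.5% to 47.1%. The part of list length in these ranks was not tested.

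H3K4me2/3 widths were greatest in the last 2 stages. The median over the called proteasome genes was 1359 bp at leptonema, 1393 bp at zygonema and 1328 bp at early pachynema, then 1915.5 bp at late pachynema and 2047 bp at diplonema. Over all called genes the medians were 1437 bp, 1318 bp, 1252 bp, 1752 bp and 1861 bp in the same order, also greatest in the last 2 stages. The widest single peak of the set was that of Psma3 at diplonema, with 8532 bp. Psmb1 reached 5009 bp at late pachynema and 5244 bp at diplonema, and Psmc2 3987 bp and 3863 bp.

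Of 26 further genes of the pathway, 13 were called in all 10 H3K4me3 lists (18.2% of all genes), 11 in 1 to 9 lists and the 2 transporter genes Tap1 and Tap2 in none (44.8% of all genes). All 5 H3K4me2/3 lists called 22 of them (48.7% of all genes). The genes for proteasome activators and the inhibitor Psmf1 had 33 of 50 possible H3K4me3 calls, those for assembly factors (Psmg1 to Psmg4 and Pomp) 43 of 50, ubiquitin receptors and deubiquitinases 76 of 80, and regulators of proteasome synthesis and import, among them Nfe2l1 and Akirin2, 49 of 50. Beside these counts, an H3K4me3 list called between 25.5% and 47.1% of all genes, with a median of 36.4%. The activator genes Psme1 and Psme2, which are induced by interferon, were called in 1 and 3 lists, and Psme3 and Psme4 in all 10. Of the 23 genes tested, 0 passed after adjustment (exact permutation test). At an unadjusted p under 0.05, 5 were wider in the earlier stages (Psme2, Psmg1, Psmg4, Rad23b and Ecpas), against 16.6% of all genes tested, and 2 in the later stages (Sem1 and Ngly1), against 2.64%. With limma over all genes, Psme2 alone of the 23 passed after adjustment (adjusted p = 0.0383, wider in the earlier stages). In that direction, 4.85% of all genes tested passed. The mean width of Psme2 was 289 bp and its difference 722 bp, so that all 3 of its calls lay in the earlier libraries. Psme2 thus entered both tests only through the group where it was wider, and its p-values are no separate support. At an unadjusted p under 0.05, limma gave 4 genes wider in the earlier and 1 in the later stages, against 18.7% and 3.83% of all genes tested.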

How the data were processed

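Peak lists of 20 ChIP-Seq libraries were analysed, and 31 further samples of the series were not analysed here. The deposited lists hold, per peak, a chromosome with 2 positions (other columns name stage, experiment and mark) and no score, height or count. Per the methods of the study, the authors aligned reads to mm10 with BWA mem 0.7.12 and called peaks per library with MACS2 2.1.2 in broad mode. Input of the same stage was the control for both antibodies to H3K4 methylation. The control for H3K9ac is not given in the sources used here. Per the labels, deepTools 3.0.1 was also used. A deeper or purer library can give a longer list, and a missing peak may reflect a signal under the caller's cutoff.

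The starts came from GENCODE M21. Widths, calls and exact permutation tests were computed in Python 3.11.15 (numpy 2.4.6, scipy 1.17.1, pandas 2.3.3), calls were checked with bedtools 2.31.1, limma 3.58.1 was the alternative test, and plots used matplotlib 3.10.9. Tests were fitted over all genes with a peak in at least 2 H3K4me3 libraries, with a threshold of 0.05 after Benjamini-Hochberg adjustment. They were tested on simulated data. The 4 pairs form 1 family for each of 2 questions. The 2 pairs with a gene at 0 in every library stay in both families and are described without a test of the width difference. For the change between stages, these pairs restate the change of their constitutive gene. Widths were given for the paired genes, Psmb11, genes called in 1 to 9 H3K4me3 lists and up to 5 genes with the largest difference in each direction. Experiments 1 and 2 were taken as replicates. The labels used here do not say whether they came from separate mice, and p-values measure the spread between these libraries. The genes, lists and tests were chosen with earlier results of these data known. Alternatives were a window of 1000 bp, protein-coding transcripts, a peak over the start itself, wider peaks, equal list sizes, ranks, summed widths, limma, no filter, a replicate block and leaving out each library; the outermost 5′ end alone was added after seeing the data.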

Additional observations from a re-analysis of the deposited data

Results flagged for a closer look

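The mean H3K4me3 width difference of Psma8 minus Psma7 was -616 bp in the 2 leptonema libraries and 535 bp in the 8 libraries of the other 4 stages, with the sign the same in every library of each side. This grouping was seen in the data and the difference between these 2 sides was not tested.

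Single libraries stood apart from the rest of their group, in widths given for named genes, by Dixon's criterion at the 95% level in 9 cases of 35 groups examined, and chance gives about 1 in 20. In the later stages, 6 of the 9 came from diplonema experiment 2, with 578 bp for Psma1, 1281 bp for Psma8, 3286 bp for Psmb1, 1530 bp for Psmb5, 2818 bp for Psmc2 and 596 bp for Psmd14. The list of diplonema experiment 2 held 12071 peaks, against 6645 in diplonema experiment 1, and its part in these widths was not tested. In the earlier stages, leptonema experiment 2 gave 825 bp for Psmb10 and 735 bp for Psmc2, and zygonema experiment 2 gave 0 bp for Psmb6.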

How the results depend on the processing

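The count of proteasome genes that passed after adjustment was 0 in both directions under all 21 alternatives. With equal list sizes the widths gave 9 genes wider in the later and 0 in the earlier stages at an unadjusted p under 0.05, beside 688 and 600 of the 7452 genes tested. The wider H3K4me3 of Psmb5, Psmb6 and Psmb7 than of the immune genes kept its direction in all 18 alternatives of each pair. The sign-flip test passed in the deposited lists for all 3 pairs. For Psmb8 and Psmb9, at 0 throughout, it only restates the calls of Psmb5 and Psmb6. For Psmb10, called in 1 library, it largely restates the calls of Psmb7. It no longer passed when a peak had to cover a start (-315, -348 and -513 bp for the immune minus the constitutive gene), with the wider peaks of each list (-407, -234 and -385 bp) and with equal list sizes (-400, -259 and -531 bp). Leaving out each library gave values from -606 to -461 bp, -497 to -370 bp and -696 to -519 bp.

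Psma8 minus Psma7 passed on ranks (25.3 percentile points, adjusted p = 0.0469 in the exact sign-flip permutation test). Leaving out each library in turn gave 214 to 426 bp, and the call was gained without leptonema experiment 2. The change of this difference between earlier and later stages was -944 bp with equal list sizes (exact permutation test, adjusted p = 0.019), and -891 to -456 bp on leaving out each library, with the call gained without zygonema experiment 2 (-891 bp, adjusted p = 0.0476). With equal list sizes the change for Psmb8 minus Psmb5 was 667 bp (adjusted p = 0.0286, exact permutation test). Psmb8 was at 0 there too, so that this is the change of Psmb5 alone, with the sign turned. The change for Psmb9 minus Psmb6, 8.92 bp, turned to -157 bp when a peak had to cover a start and ranged from -138 to 71.2 bp on leaving out each library, negative without zygonema experiment 2 (-138 bp), late pachynema experiment 1 (-13.2 bp) or diplonema experiment 2 (-131 bp). The cause was not tested. Among single genes, Psmb2 turned to -152 bp, earlier minus later, with equal list sizes and Psmc2 to 11.4 bp without diplonema experiment 2 (range -511 to 11.4 bp on leaving out each library).

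Genes called in all 10 H3K4me3 lists fell from 27 to 9 when a peak had to cover a start, to 2 with the wider peaks and to 1 with equal list sizes. These settings keep fewer calls by construction. Genes called in no H3K4me3 list were 8 with the wider peaks and, with the outermost 5′ end alone, an alternative added after seeing the data, 7 in place of 3. The 4 added genes were Psmb10 and, called in all 10 lists at other starts, Psma6, Psmd5 and Psmd9. The median number called per H3K4me3 list was 15 with the wider peaks and 18 with equal list sizes, in place of 33, and per H3K9ac list 9 over a start and 1 with equal list sizes, in place of 15. The share of all genes called was not counted in any of these alternatives.

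Pairing of the libraries by experiment number was examined on the widths. Of 10 correlations between stages of the difference between experiments 1 and 2, 2 were over 0.1 (range -0.186 to 0.336). Such values cannot show whether the libraries of an experiment shared mice. With a replicate block, permuting stages within each experiment, the change of Psma8 minus Psma7 was -683 bp (100 splits, exact permutation test, adjusted p = 0.16), those of the other pairs 248, 8.92 and 219 bp, and the block changed no call. Depth is unknown from the lists, and a missing call does not show that the mark is absent.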
